A study of Mus musculus with 8 samples.

Results

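The EGF family comprises secreted and membrane-bound ligands that share one fold, the EGF domain, and the receptor tyrosine kinases that bind them. Amphiregulin (Areg), epiregulin (Ereg), EGF (Egf), heparin-binding EGF-like growth factor (Hbegf), TGF-alpha (Tgfa), betacellulin (Btc), epigen (Epgn) and neuregulin 1 (Nrg1) are made as membrane precursors that proteases such as ADAM17 can release, and they act on nearby cells. Most of them bind EGFR, whereas neuregulin 1 binds ERBB3 and ERBB4, and ERBB3, which has little kinase activity of its own, signals through a partner such as ERBB2. In the intestine EGFR signalling drives proliferation through the RAS and MAPK branch, and EGF is a standard supplement of organoid medium. The 10 members, 8 ligands (Areg, Ereg, Egf, Hbegf, Tgfa, Btc, Nrg1 and Epgn) and 2 receptors (Egfr and Erbb3), were taken by gene symbol from the 32285 genes of the deposited tables. All 10 were found.

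Single-cell RNA libraries (10x Genomics, Single Cell 3' v3) of mouse colon (C57BL/6) came in 4 groups of 2 replicates. Assembloid stroma was EpCAM-negative cells of assembloids, in which colon organoids and cultured primary colon stromal cells were joined in a Matrigel droplet. Assembloid epithelium was epithelial cells of such assembloids. Organoid epithelium came from colon organoids without stroma, and tissue epithelium from crypts freshly isolated from colon with EDTA. Organoid medium held EGF, a surrogate Wnt, the GSK3 inhibitor CHIR-99021, R-spondin 1 and noggin, whereas assembloids were kept in that medium without the last 4, so EGF protein was supplied to both cultures and not to the tissue. The organoids and stromal cells had both been grown in culture before assembly, and assembloids were dissociated with Liberase TL and then TrypLE, organoids and tissue with TrypLE alone. Stromal cells came from 2 mice, and the animals were males of 6 to 12 weeks.

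A cell was kept when it showed 500 genes or more and no more than 10% of its UMIs (unique molecular identifiers, each standing for 1 captured transcript) came from mitochondrial genes. The methods give these limits for stromal cells. The limits kept 94.8% and 96.1% of the deposited cell barcodes in stroma and 89.3% and 55.1% in assembloid epithelium. They kept 29410 and 7722 cells in assembloid epithelium and 4692 and 4310 in tissue epithelium. The methods report fewer cells after filtering for assembloid epithelium and more for tissue epithelium, so the cell sets differ from those of the study. In organoid epithelium 81.4% and 55.3% were kept and in tissue epithelium 38.7% and 25.4%, so the groups were filtered to unequal degrees. UMIs were summed per library after leaving stromal and immune cells out of epithelial sums and epithelial cells out of stromal sums. The sums held 36908074 to 187583982 UMIs over 4302 to 25352 cells, so that 3 UMIs corresponded to 0.0160 to 0.0813 CPM (UMIs scaled to a library total of 1000000). Assembloid epithelium replicate 1 stood apart, with 25352 cells summed at a median of 3578 UMIs per kept cell against 6821 cells at 13866 in replicate 2. The 8 fibroblast markers also summed to more in its epithelial cells, 181 CPM there, 36.4 CPM in replicate 2, at most 0.623 CPM in organoid and tissue epithelium and at least 12394 CPM in stroma. The epithelial list of 7 markers, Epcam and Krt8 among them, summed to at least 5818 CPM in every epithelial library and at most 31.8 CPM in stroma, after 981 and 81 of 9020 and 9048 kept stromal cells had been left out by these gates, so the low stromal sum is no check of the labels. Both stromal tables carry a header of Cell Ranger 6.0.1 and the other 6 one of 7.1.0, so software version and cell sort cannot be told apart. Any pair of libraries shared 6 to 76 cell barcodes. In such sums a change in cell numbers of one type and a change in RNA per cell cannot be told apart.

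Areg, Ereg, Btc and Epgn lie together on mouse chromosome 5 (GRCm38) within 375.5 kb, from 91027464 to 91402994. Epgn (91027464 to 91035215), Ereg (91074622 to 91093646) and Areg (91139599 to 91148432) are on the plus strand and Btc (91357261 to 91402994) on the minus strand. The promoters of the clustered genes are printed because these genes were all higher in assembloid than in tissue epithelium. RefSeq promoters, here the 250 bases before the RefSeq start site, were at hand for 6 of the 10 members, not for Ereg. In the lines that follow capitals mark TGACGTCA, the palindromic cAMP response element, and TATAAA, the core promoter motif that the TBP protein binds.
Areg, chr5:91139349-91139598, plus strand: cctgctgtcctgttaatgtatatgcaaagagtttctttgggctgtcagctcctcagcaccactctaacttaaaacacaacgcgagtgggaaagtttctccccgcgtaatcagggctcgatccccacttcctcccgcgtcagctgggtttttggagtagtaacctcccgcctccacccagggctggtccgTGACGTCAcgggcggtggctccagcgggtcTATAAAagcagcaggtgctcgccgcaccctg
Epgn, chr5:91027267-91027516, plus strand: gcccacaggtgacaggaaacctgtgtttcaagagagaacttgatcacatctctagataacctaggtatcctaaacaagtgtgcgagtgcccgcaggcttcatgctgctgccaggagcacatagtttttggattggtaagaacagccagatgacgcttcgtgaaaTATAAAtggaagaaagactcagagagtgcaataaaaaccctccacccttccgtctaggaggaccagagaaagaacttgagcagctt
Btc, chr5:91402995-91403244, minus strand: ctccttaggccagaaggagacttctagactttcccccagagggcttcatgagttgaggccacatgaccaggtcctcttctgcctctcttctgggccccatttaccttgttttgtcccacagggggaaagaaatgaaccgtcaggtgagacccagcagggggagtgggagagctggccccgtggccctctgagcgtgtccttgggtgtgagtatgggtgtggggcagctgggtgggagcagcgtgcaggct

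In the Areg promoter TGACGTCA began 61 bases and TATAAA 31 bases before the start site, and in the Epgn promoter TATAAA began 86 bases before it, counted from the RefSeq start sites. For Epgn that start lies inside the GENCODE gene given above, which begins at 91027464, whereas the window ends at 91027516. The Btc window held neither TGACGTCA nor TATAAA. None of the printed windows, those of Areg and Epgn included, held TGANTCA, the AP-1 site. Over 32851 mouse promoters of the same length and on both strands, TGACGTCA occurred in 508 (1.55%), TATAAA in 4063 (12.4%) and TGANTCA in 2217 (6.75%). These matches describe the letters and say nothing of binding in these cells.

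The other members are spread over the genome (GRCm38). Egf lies on chromosome 3 (129677565 to 129755316), Tgfa on chromosome 6 (86195223 to 86275719), Nrg1 on chromosome 8 (31814551 to 32884029), Erbb3 on chromosome 10 (128567523 to 128589652), Egfr on chromosome 11 (16752203 to 16918158) and Hbegf on the minus strand of another chromosome.

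Amphiregulin was the ligand with the most UMIs in both epithelial cultures, whereas Hbegf took the largest share in tissue epithelium. Areg stood at 82.0 and 132 CPM in tissue epithelium, 61.7 and 77.7 CPM in organoid epithelium, 509 and 566 CPM in assembloid epithelium and 34.8 and 20.1 CPM in assembloid stroma. Both assembloid epithelial libraries were thus above all 6 others. Areg rose 6.55-fold from tissue to assembloid epithelium (log2 fold change 2.71, SE 0.29, adjusted p 0.000222, edgeR's quasi-likelihood test) and fell by 3.11 on the log2 scale from assembloid to organoid epithelium (SE 0.30, adjusted p 0.000151). Organoid and tissue epithelium did not differ beyond their spread (log2 fold change -0.40, SE 0.28, adjusted p 0.263), and the nearest libraries of these groups lay at 77.7 and 82.0 CPM.

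**Figure D1:**
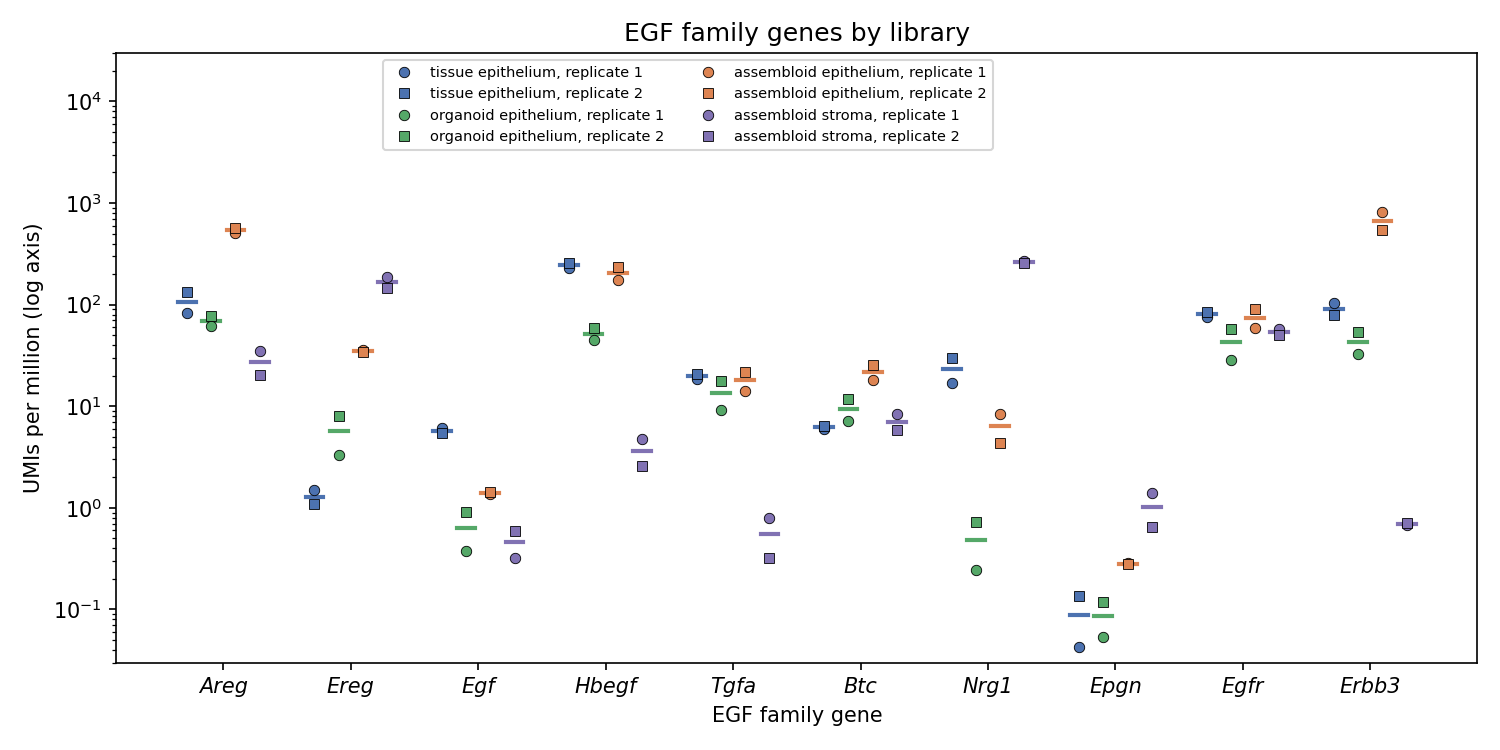
Level of each EGF family member in each of the 8 libraries, in CPM on a log axis, with the libraries grouped as tissue, organoid and assembloid epithelium and assembloid stroma, a circle for replicate 1, a square for replicate 2 and a line at the mean. The assembloid epithelial libraries lead for Areg (509 and 566) and Erbb3 (809 and 537), and the stromal libraries lead for Nrg1 (272 and 254) and Ereg (186 and 146).

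Epiregulin, a ligand of EGFR and ERBB4, was mainly a stromal transcript. Ereg stood at 186 and 146 CPM in assembloid stroma, 36.1 and 33.8 CPM in assembloid epithelium, 3.30 and 8.01 CPM in organoid epithelium and 1.49 and 1.08 CPM in tissue epithelium, and no 2 of these ranges overlapped. It was 5.20-fold higher in assembloid stroma than in assembloid epithelium (log2 fold change 2.38, SE 0.32, adjusted p 0.000183). It rose 35.6-fold from tissue to assembloid epithelium (log2 fold change 5.15, SE 0.38, adjusted p 3.70e-05), rose from tissue to organoid epithelium (log2 fold change 2.29, SE 0.35, adjusted p 0.00104) and fell by 2.86 on the log2 scale from assembloid to organoid epithelium (SE 0.33, adjusted p 0.000314). In assembloid epithelium its level was 9.36% and 7.74% of that in fibroblast-like cells of the same libraries. The same share was 2.16% and 0.246% for Col1a1 and 2.44% and 0.271% for Dcn, 2 matrix genes of fibroblasts. The share of Ereg was thus above that of both matrix genes, and the part of stromal RNA in the epithelial Ereg level was not tested.

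Neuregulin 1, the ligand of ERBB3, was the leading ligand of the stroma. Nrg1 stood at 272 and 254 CPM in assembloid stroma, 17.1 and 29.5 CPM in tissue epithelium, 8.45 and 4.35 CPM in assembloid epithelium and 0.245 and 0.720 CPM in organoid epithelium, again without overlap. It was 44.0-fold higher in assembloid stroma than in assembloid epithelium (log2 fold change 5.46, SE 0.53, adjusted p 2.97e-05). Among epithelia it fell by 5.48 on the log2 scale from tissue to organoid (SE 0.58, adjusted p 0.000161) and by 4.04 from assembloid to organoid (SE 0.55, adjusted p 0.000635). The assembloid level was 3.94% and 1.80% of that of fibroblast-like cells in the same libraries, against 2.16% and 0.246% for Col1a1, and the part of stromal RNA in it was not tested. The fall from tissue to assembloid epithelium (log2 fold change -1.44, SE 0.47, adjusted p 0.0328) was not called without assembloid epithelium replicate 2 (-0.98, adjusted p 0.0931) or without tissue epithelium replicate 2 (-0.99, adjusted p 0.200), and with all kept cells in the sums its direction turned (0.27, adjusted p 0.564).

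Hbegf, an EGFR and ERBB4 ligand known from wound repair, was an epithelial transcript that was low in organoids. It stood at 231 and 260 CPM in tissue epithelium, 176 and 238 CPM in assembloid epithelium, 44.8 and 58.8 CPM in organoid epithelium and 4.72 and 2.59 CPM in stroma. Tissue and assembloid ranges overlapped and the organoid and stromal ranges lay below both. Hbegf fell by 2.03 on the log2 scale from tissue to organoid epithelium (SE 0.22, adjusted p 0.000208) and by 2.16 from assembloid to organoid epithelium (SE 0.23, adjusted p 0.000212). Between assembloid and tissue epithelium the difference was 0.13 (SE 0.22, adjusted p 0.637), with a direction that turned when library totals replaced the TMM factors (-0.25). It was 51.2-fold lower in stroma than in assembloid epithelium (log2 fold change -5.68, SE 0.33, adjusted p 1.83e-06).

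Betacellulin and TGF-alpha, 2 further EGFR ligands, were lower in level. Btc stood at 18.2 and 25.4 CPM in assembloid epithelium, 7.23 and 11.7 CPM in organoid epithelium, 5.94 and 6.45 CPM in tissue epithelium and 8.31 and 5.78 CPM in stroma. Both assembloid epithelial libraries were above all others. Btc rose 4.57-fold from tissue to assembloid epithelium (log2 fold change 2.19, SE 0.22, adjusted p 0.000161) and rose from tissue to organoid epithelium (log2 fold change 0.81, SE 0.22, adjusted p 0.0145), but the latter call was lost with library totals (0.61, adjusted p 0.120) and without tissue replicate 1 (0.75, adjusted p 0.133) or 2 (0.89, adjusted p 0.0788). Tgfa stood at 18.5 and 20.8 CPM in tissue epithelium, 14.12 and 21.97 CPM in assembloid epithelium, 9.25 and 17.6 CPM in organoid epithelium and 0.792 and 0.321 CPM in stroma. The epithelial groups did not differ beyond their spread in Tgfa, with adjusted p from 0.0690 to 0.441 in edgeR, although DESeq2 called organoid against assembloid epithelium (adjusted p 0.0434). Stroma was 29.2-fold lower than assembloid epithelium (log2 fold change -4.87, SE 0.43, adjusted p 1.63e-05).

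EGF itself and epigen were rare transcripts. Egf stood at 6.07 and 5.47 CPM in tissue epithelium, 1.37 and 1.43 CPM in assembloid epithelium, 0.373 and 0.903 CPM in organoid epithelium and 0.318 and 0.598 CPM in stroma. Tissue epithelium was above every culture library, and Egf fell by 1.65 on the log2 scale from tissue to assembloid (SE 0.37, adjusted p 0.00654) and by 3.02 from tissue to organoid epithelium (SE 0.39, adjusted p 0.000439). Epgn stood at 1.41 and 0.649 CPM in stroma, 0.283 and 0.281 CPM in assembloid epithelium, and at most 0.135 CPM in tissue and 0.118 CPM in organoid epithelium. At 382 UMIs over the 8 library sums it was the rarest member, and its call between assembloid and tissue epithelium (log2 fold change 2.10, SE 0.69, adjusted p 0.0338) was lost in most alternatives, among them DESeq2 (adjusted p 0.120), library totals (1.71, adjusted p 0.0777) and leaving out assembloid epithelium replicate 1 (2.02, adjusted p 0.0717) or tissue replicate 1 (1.42, adjusted p 0.296).

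The 2 receptors behaved differently. Erbb3 stood at 809 and 537 CPM in assembloid epithelium, 103 and 79.7 CPM in tissue epithelium, 32.9 and 53.3 CPM in organoid epithelium and 0.674 and 0.707 CPM in stroma, with no overlap between any 2 groups. It rose 9.84-fold from tissue to assembloid epithelium (log2 fold change 3.30, SE 0.35, adjusted p 0.000192), and the value was 2.87 without assembloid epithelium replicate 1 (adjusted p 0.000142). It fell by 4.18 on the log2 scale from assembloid to organoid epithelium (SE 0.36, adjusted p 0.000104) and was 900.1-fold lower in stroma than in assembloid epithelium (log2 fold change -9.81, SE 0.43, adjusted p 5.03e-07). From tissue to organoid epithelium the difference was -0.88 (SE 0.32, adjusted p 0.0505), which DESeq2 called (adjusted p 0.0075). Egfr stood at 75.8 and 84.4 CPM in tissue epithelium, 59.2 and 90.1 CPM in assembloid epithelium, 28.6 and 57.5 CPM in organoid epithelium and 58.0 and 50.3 CPM in stroma. The assembloid range overlapped that of tissue, and the organoid range overlapped that of stroma. Tissue and assembloid epithelium both lay above organoid epithelium and stroma, assembloid epithelium narrowly (59.2 against 58.0 CPM in the nearest stromal library). Of the comparisons between library sums edgeR called Egfr only between organoid and assembloid epithelium (log2 fold change -0.98, SE 0.27, adjusted p 0.0145), a call lost with library totals (-0.79, adjusted p 0.0605), without organoid replicate 1 (-0.69, adjusted p 0.0605) and without assembloid epithelium replicate 2 (-0.75, adjusted p 0.0725). From tissue to organoid epithelium Egfr differed by -0.71 (SE 0.27, adjusted p 0.0554), which DESeq2 called (adjusted p 0.0260). Egfr was the one member whose stromal and assembloid epithelial levels did not differ beyond their spread (log2 fold change -0.31, SE 0.25, adjusted p 0.291).

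**Figure D2:**
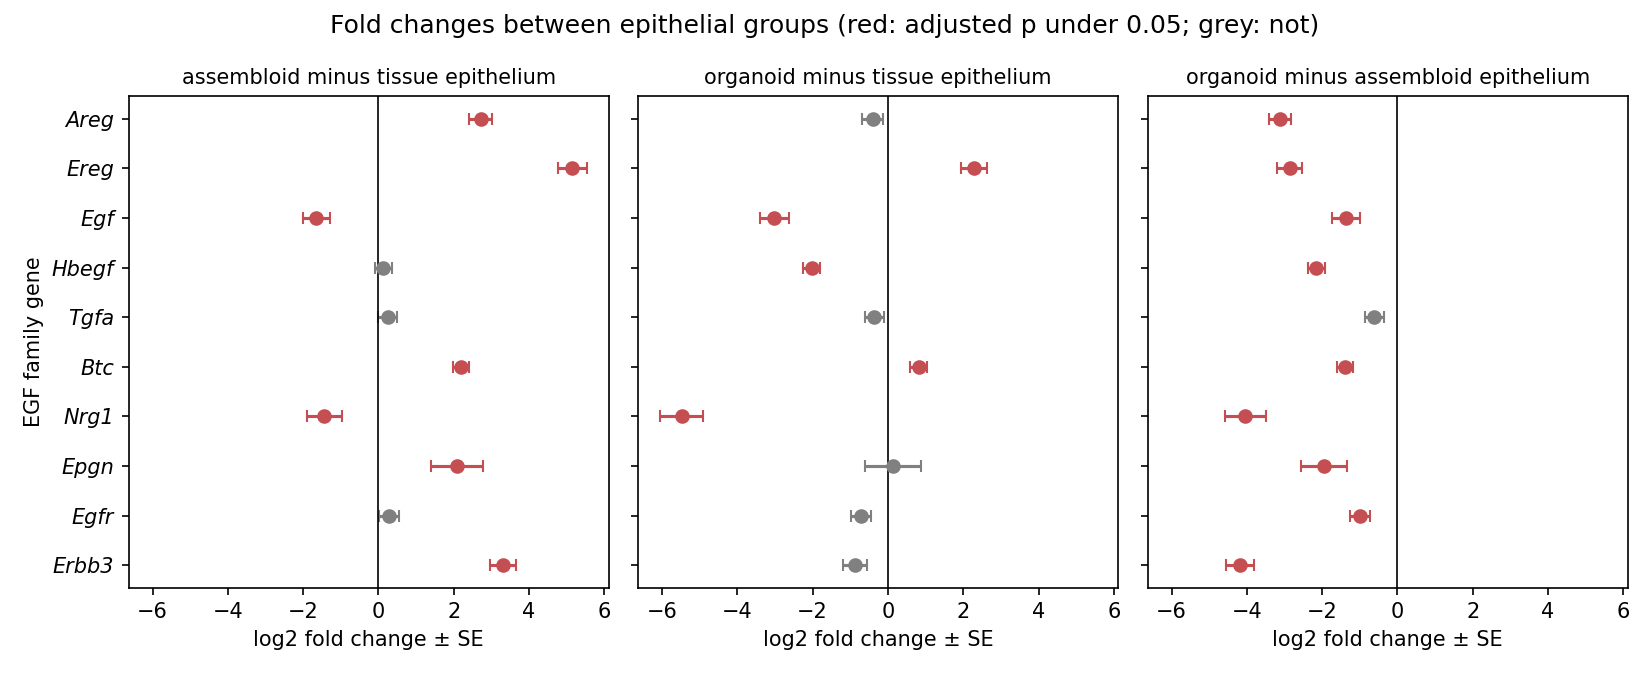
Log2 fold change of each member, with bars of 1 SE, in the 3 comparisons between epithelial library sums, in red where the adjusted p was under 0.05 and in grey where it was not. From tissue to assembloid epithelium Ereg (5.15), Erbb3 (3.30), Areg (2.71) and Btc (2.19) lie to the right of 0, whereas from assembloid to organoid epithelium all members lie to the left.

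Counted over the family, 7 of 10 members passed the test between assembloid and tissue epithelium, 5 higher (Areg, Ereg, Btc, Epgn and Erbb3) and 2 lower (Egf and Nrg1), against 49.7% of all genes tested (26.5% higher and 23.2% lower). Among these, the Epgn call was lost with DESeq2 and with library totals, and the Nrg1 call with all kept cells summed. From assembloid to organoid epithelium 9 of 10 passed, all lower in organoids, against 52.9% of all genes (24.4% higher and 28.5% lower). From tissue to organoid epithelium 5 of 10 passed (2 higher and 3 lower), against 47.1% (24.3% higher and 22.9% lower), and between stroma and assembloid epithelium 9 of 10 (3 higher and 6 lower), against 73.4% (38.6% higher and 34.8% lower). The median log2 fold change of the members was 1.18, -2.06, -0.56 and -1.48 in these comparisons, and that of all genes tested 0.03, -0.01, 0.06 and 0.12. These comparisons share libraries. With the fibroblast-like cells caught in the assembloid epithelial libraries in place of the stromal libraries, so that both sides had the same software, 4 of 10 members were called against assembloid epithelium, beside 15.0% of all genes, Nrg1 (5.07, adjusted p 0.0115), Ereg (3.50, adjusted p 0.0115) and Epgn (2.94, adjusted p 0.0206) higher and Tgfa (-1.78, adjusted p 0.0384) lower, while Erbb3 (-1.69, adjusted p 0.216) and Hbegf (-1.50, adjusted p 0.0818) were not. Those fibroblast-like cells held the epithelial gene Epcam at 1028 and 363 CPM, against 2085 and 2272 CPM in the epithelial sums. Both sides came from the same libraries, and the fit had no block for them. The part of epithelial RNA in these values was not tested. Replacing the TMM factors by library totals moved the median of all genes between assembloid and tissue epithelium from 0.03 to -0.36 and the share of higher genes among those called from 53.3% to 37.6%. Under it Areg (2.33), Ereg (4.76), Btc (1.82) and Erbb3 (2.88) were still called higher, all above that median. For tissue and organoid epithelium the share went from 51.5% to 41.8% (median 0.06 and -0.15).

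Summed over the 8 ligands, UMIs came to 763 and 891 CPM in assembloid epithelium, 509 and 431 CPM in assembloid stroma, 362 and 456 CPM in tissue epithelium and 127 and 176 CPM in organoid epithelium. Shares of this sum were not divided by gene length, since the tags come from the 3' end of transcripts. Whether introns were counted is not given, and any effect of gene length on these shares was not tested. Areg made 66.6% and 63.5% of the sum in assembloid epithelium and Hbegf 23.1% and 26.7%. In tissue epithelium Hbegf made 63.8% and 57.0% and Areg 22.7% and 29.1%. In stroma Nrg1 made 53.4% and 59.1% and Ereg 36.7% and 33.9%, so those 2 ligands held most of the stromal total.

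**Figure D3:**
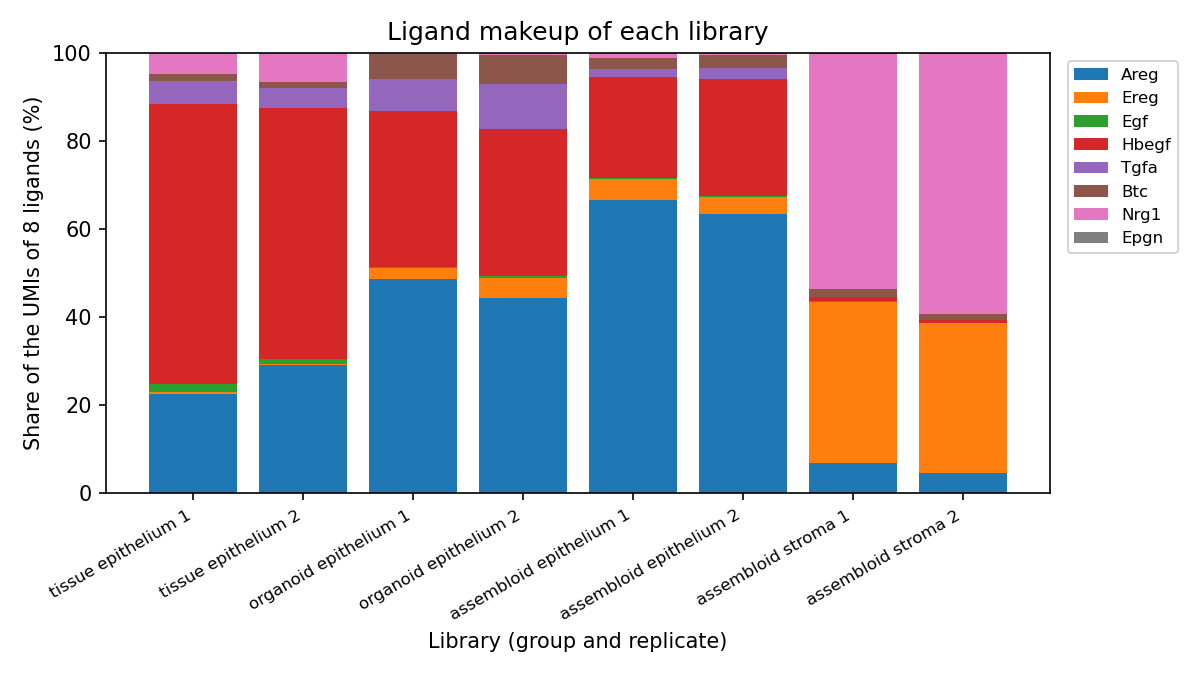
Share of each ligand in the UMIs of all 8 ligands, in percent of that sum, with 1 stacked bar per library. Areg fills 66.6% and 63.5% of the assembloid epithelial bars, Hbegf 63.8% and 57.0% of the tissue bars, and Nrg1 with Ereg most of the stromal bars.

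To see which cells carried these transcripts, cells were assigned to classes by marker genes that hold no member of the family. A class is named "X-like" after its marker list, had to hold at least 20 cells in each library, and is a gate on a score rather than a cluster. Between 19.1% and 63.2% of kept cells fell in no class. Levels in the classes below are again CPM, from UMIs summed over the cells of the class in each library.

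Areg was highest in the colonocyte-like cells of assembloids, the absorptive cells marked by Krt20, Aqp8 and Car4, at 712 and 740 CPM (12784 and 13187 UMIs). This was above every other of the 21 classes. Cycling (386 and 438 CPM) and goblet-like cells of assembloids (389 to 417 CPM) came next and overlapped. In tissue colonocyte-like cells led as well, with 165 and 269 CPM in colonocyte-like, 71.98 and 63.56 CPM in Lgr5-positive, 47.8 and 65.4 CPM in cycling and 28.3 and 36.7 CPM in goblet-like cells. The Lgr5-positive gate uses genes of crypt base cells, where stem cells sit. Colonocyte-like cells exceeded Lgr5-positive cells in tissue (log2 fold change 2.22, SE 0.33, adjusted p 2.81e-05) and in assembloids, where Lgr5-positive cells had 353 and 364 CPM (log2 fold change 1.80, SE 0.31, adjusted p 0.000387). Areg was the 1 member of 9 tested that passed in either of these comparisons without a block for the library, against 34.4% of all genes in tissue (17.6% higher and 16.8% lower) and 21.5% in assembloids (13.0% higher and 8.52% lower), and with library totals the share of higher genes among those called went from 51.1% to 23.3% in tissue and from 60.4% to 12.1% in assembloids. Areg was called with library totals too (1.67, adjusted p 0.000217, and 1.02, adjusted p 0.0113), and the effects in tissue and assembloids did not differ beyond their error (difference -0.42, SE 0.44, adjusted p 0.748). Both classes come from the same libraries, and with the library as a block Erbb3 in tissue (0.81, adjusted p 0.000357) and Hbegf in assembloids (0.66, adjusted p 0.0166) were called as well, against 0.82 (adjusted p 0.0665) and 0.65 (adjusted p 0.0861) without it. The Hbegf value turned with library totals (-0.13, adjusted p 0.783). Within each class Areg was also higher in assembloids than in tissue, with a log2 fold change of 2.21 in colonocyte-like (SE 0.31, adjusted p 1.23e-05), 2.63 in Lgr5-positive (SE 0.34, adjusted p 1.50e-05) and 3.40 in cycling cells (SE 0.33, adjusted p 1.44e-07).

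**Figure D4:**
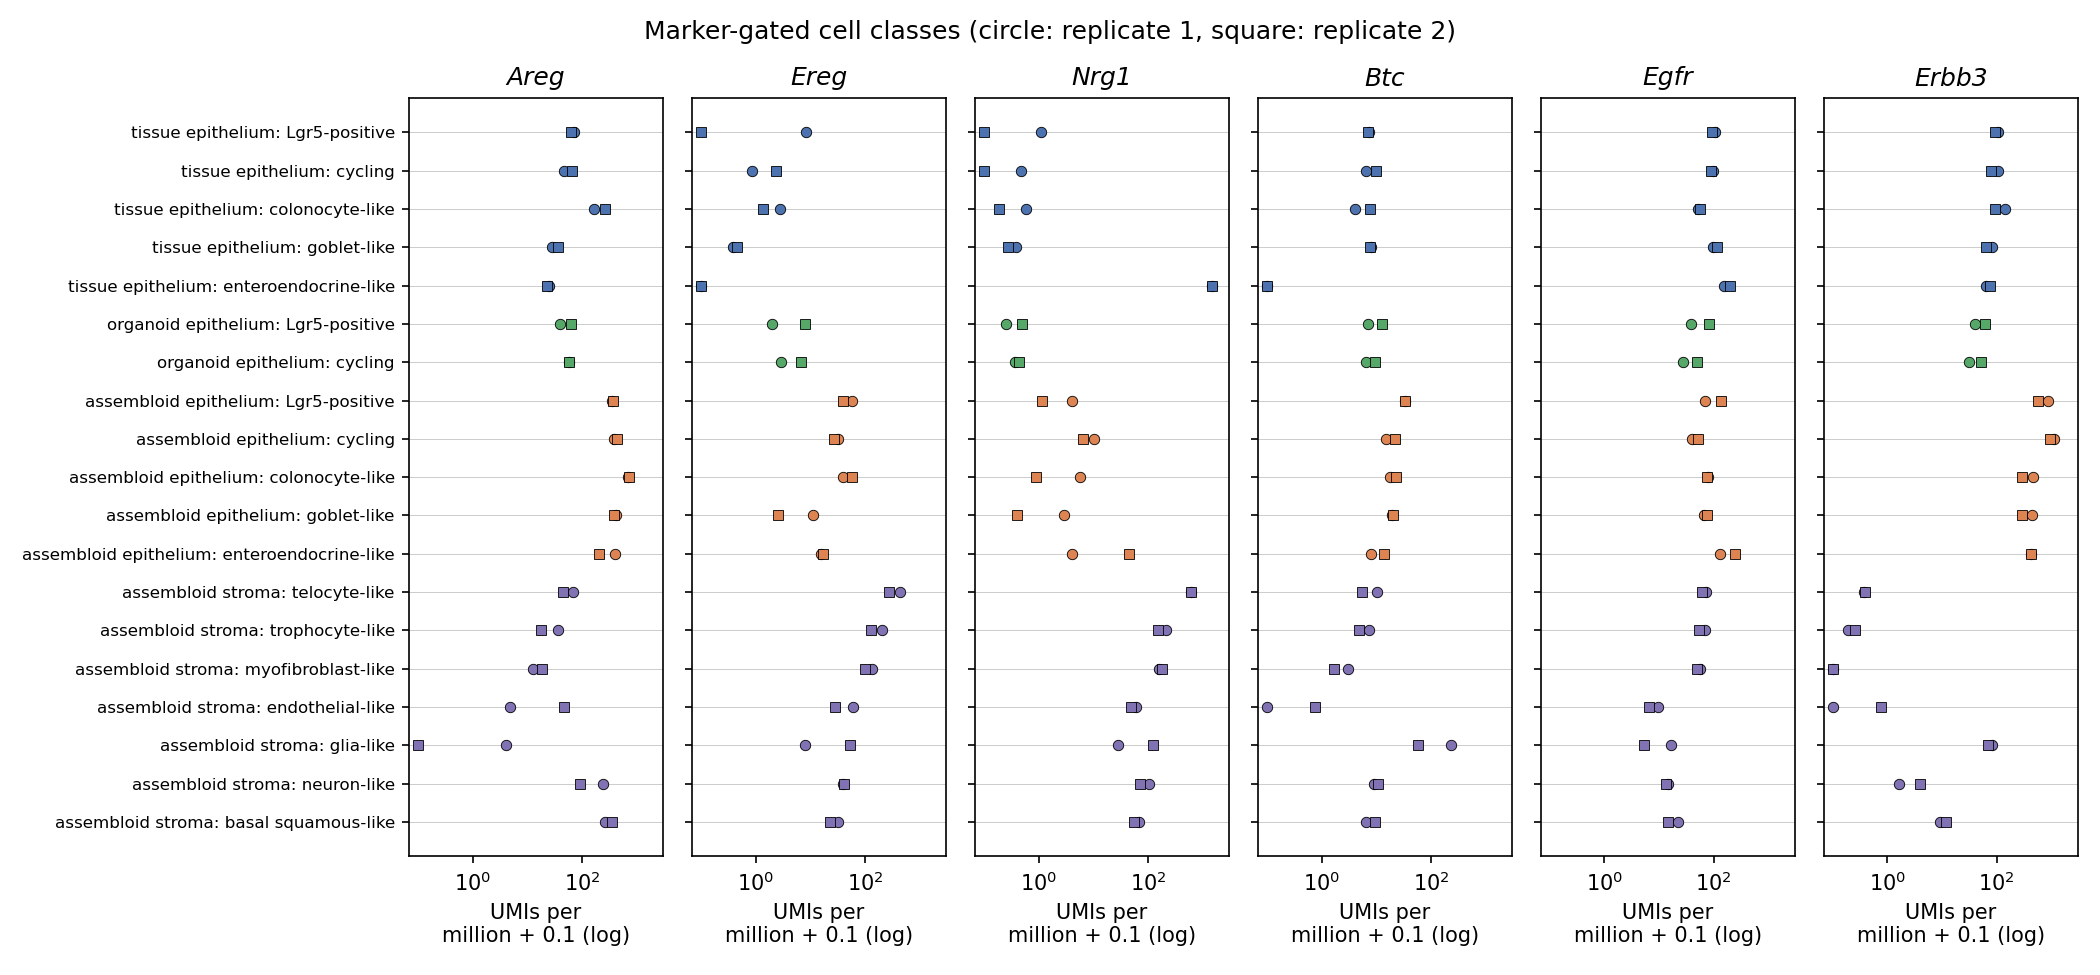
Levels of Areg, Ereg, Nrg1, Btc, Egfr and Erbb3 in each cell class, in CPM plus 0.1 on a log axis, with a circle for replicate 1, a square for replicate 2 and a colour per group. Areg peaks in colonocyte-like cells of assembloids (712 and 740), Nrg1 in enteroendocrine-like cells of tissue (1483 and 1521), and Erbb3 in cycling cells of assembloids (1110 and 938).

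By CPM, Erbb3 was highest in the cycling cells of assembloids at 1110 and 938 CPM, followed without overlap by their Lgr5-positive cells at 872 and 564 CPM. Enteroendocrine-like (414 to 427 CPM), colonocyte-like (467 and 295 CPM) and goblet-like cells of assembloids (290.4 to 449 CPM) came next and overlapped. With TMM scaling colonocyte-like and Lgr5-positive cells of assembloids did not differ in Erbb3 beyond their spread (log2 fold change -0.14, SE 0.33, adjusted p 0.818), whereas with library totals they did (-0.91, adjusted p 0.0337). In tissue the colonocyte-like (141 and 93.4 CPM), cycling (106 and 77.9 CPM) and Lgr5-positive cells (104 and 90.9 CPM) overlapped. Erbb3 rose from tissue to assembloid in all 3 classes, by 4.02 on the log2 scale in cycling (SE 0.37, adjusted p 5.42e-08), 3.11 in Lgr5-positive (SE 0.36, adjusted p 5.15e-06) and 2.15 in colonocyte-like cells (SE 0.34, adjusted p 3.91e-05). The rise in cycling cells exceeded that in colonocyte-like cells by 1.87 on the log2 scale (SE 0.46, adjusted p 0.0330 for the interaction, which called 2.31% of all genes), a call lost without tissue replicate 1 (1.89, adjusted p 0.571) or 2 (2.10, adjusted p 0.250). Outside the epithelium, Erbb3 was found in glia-like cells of the stroma at 80.8 and 68.1 CPM, on 20 and 13 UMIs, a lineage in which neuregulin signalling through ERBB3 is known to act. The stromal sums held 91 and 97 Erbb3 UMIs, of which cells that fell in more than 1 class held 33 and 49 and cells of no class 29 and 19. Erbb3 had 5 and 6 UMIs in telocyte-like, 2 and 4 in trophocyte-like and 0 in myofibroblast-like cells.

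Both of these assembloid transcripts also appeared in cells of the same libraries that passed a macrophage or fibroblast gate. Those gates did not leave out cells with epithelial genes. Macrophage-like cells of the assembloid epithelial libraries held Areg at 301 and 136 CPM and Erbb3 at 407 and 121 CPM, and fibroblast-like cells held Areg at 373 and 194 CPM and Erbb3 at 364 and 63.8 CPM. Epcam, an epithelial gene, stood in fibroblast-like cells at 1028 and 363 CPM against 2085 and 2272 CPM in the epithelial sum, and in macrophage-like cells at 1115 and 578 CPM. To compare shares of cells at one depth, each cell was thinned to 2000 UMIs and shallower cells were left out. A UMI of Erbb3 was then found in 53.3% and 38.9% of assembloid epithelial cells (19488 and 6059 cells), 19.2% and 15.2% of tissue cells (2435 and 2763) and 6.68% and 11.1% of organoid cells (4762 and 4615). Before thinning the shares were 76.4% and 81.2%, 72.6% and 52.0%, and 59.2% and 53.7%. In macrophage-like cells of the assembloid libraries the thinned share was 36.4% in replicate 1 and 8.97% in replicate 2, and in fibroblast-like cells 38.4% and 6.89% (53.8% and 25.3% before thinning). All of these lay below the epithelial share of the same replicate. Since these cells also held Epcam, their shares do not measure free RNA within epithelial cells. For Areg the thinned shares were 54.2% and 52.0% in assembloid, 13.5% and 17.7% in tissue and 9.09% and 11.5% in organoid epithelium, and 44.2% and 13.5% in macrophage-like cells (77.9% and 85.6%, 44.3% and 46.5%, 48.5% and 40.9%, and 59.4% and 45.3% before thinning). In fibroblast-like cells the Areg share was 43.4% and 19.9% (61.3% and 42.5% before thinning). Median depths before thinning were 4917 and 15684 UMIs in assembloid epithelium, 3677.5 and 13693 in macrophage-like and 3956 and 10900 in fibroblast-like cells. The part of free RNA in the difference between assembloid and tissue was not tested.

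In tissue epithelium, Nrg1 was carried by enteroendocrine-like cells, the hormone-producing cells whose leading genes here were Gcg, Pyy, Chgb and Insl5. They held 787 of 803 and 985 of 1090 Nrg1 UMIs of the tissue sums (98.0% and 90.4%) on 49 and 94 cells. Their level of 1483 and 1521 CPM was above every other class of any group. Lgr5-positive, cycling, colonocyte-like and goblet-like cells of tissue had 0 to 5 Nrg1 UMIs each. At 2000 UMIs per cell, 20.8% and 20.9% of enteroendocrine-like cells had an Nrg1 UMI, as did 0 of 524 and 0 of 833 colonocyte-like cells, at median depths of 8866.5 and 5747 against 18218.5 and 12428 UMIs. Unthinned, the shares in the enteroendocrine-like cells were 22.9% and 25.3%, so an Nrg1 UMI was detected in a minority of these cells at either depth. Of the tissue Nrg1 UMIs, 649 and 284 lay in 12 and 14 cells that passed the neuron gate as well. Without such cells the enteroendocrine-like level was 396 CPM in replicate 1, below that of telocyte-like cells of the stroma, and 1298 CPM in replicate 2. Leaving such cells out took the tissue to assembloid difference to -0.56 (adjusted p 0.540), no longer called. Enteroendocrine-like cells of assembloids, led by Chgb, Pyy, Chga and Tac1, had Nrg1 at 3.99 and 44.5 CPM on 2 and 36 UMIs from 59 and 51 cells, below tissue in both replicates. This difference was not among the comparisons tested.

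Among the classes of the stromal libraries Nrg1 and Ereg were both highest in telocyte-like cells. These are fibroblasts that in the colon lie under the upper epithelium and are marked by Foxl1, Wnt5a and Bmp genes. Nrg1 stood at 618 and 620 CPM in telocyte-like, 214 and 153 CPM in trophocyte-like (the Cd34 and Grem1 fibroblasts of the crypt base), 163 and 184 CPM in myofibroblast-like, 106 and 71.4 CPM in neuron-like and 61.8 and 48.9 CPM in endothelial-like cells. Telocyte-like cells exceeded trophocyte-like cells 3.12-fold without overlap (log2 fold change 1.64, SE 0.30, adjusted p 0.00703), 1 of 8 members tested against 8.53% of all genes. With library totals the share of higher genes among those called went from 46.0% to 65.3%. They held 30.2% and 37.4% of the stromal Nrg1 UMIs, trophocyte-like cells 13.2% and 11.2%, and cells of no class most of the rest. Ereg stood at 441 and 281 CPM in telocyte-like and 204 and 130 CPM in trophocyte-like cells, also without overlap, and differed by 1.00 (SE 0.32, adjusted p 0.0778). Fibroblast-like cells of the assembloid epithelial libraries held Ereg at 386 and 437 CPM, which overlapped the telocyte-like range. With the library as a block, Ereg (0.99, adjusted p 0.0024) and Areg (0.98, adjusted p 0.0184) were called as well. At 2000 UMIs per cell, 60.0% and 60.1% of telocyte-like cells had an Nrg1 UMI against 32.4% and 19.1% of trophocyte-like cells (94.2% and 93.4% against 74.0% and 55.5% before thinning). Of the 909 and 1039 telocyte-like cells, 201 and 223 scored less than 20% above the gate's limit.

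Endothelial-like, glia-like and neuron-like cells differed from these fibroblasts in both ligands and receptors. In endothelial-like cells 4 of 8 members passed (30.1% of all genes): Hbegf was higher (log2 fold change 2.30, SE 0.48, adjusted p 0.00338, 14.3 and 17.6 CPM), while Egfr (-3.11, adjusted p 5.25e-06), Nrg1 (-2.65, adjusted p 8.90e-05) and Ereg (-2.63, adjusted p 0.000310) were lower. In glia-like cells 6 of 8 passed (12.8% of all genes): Erbb3 (8.48, SE 0.51, adjusted p 1.05e-06), Tgfa (5.54, on 5 and 3 UMIs) and Btc (4.40, SE 0.47, adjusted p 5.70e-05) were higher and Ereg, Nrg1 and Egfr lower. Btc reached 230 and 57.7 CPM in these cells, on 57 and 11 UMIs, its highest level in any class. In neuron-like cells 7 of 8 passed (39.3% of all genes): Areg (2.02, SE 0.41, adjusted p 0.00203, 245 and 90.6 CPM), Hbegf, Tgfa and Erbb3 were higher and Ereg, Nrg1 and Egfr lower, but with at most 5% mitochondrial UMIs Areg (0.20, adjusted p 0.910), Hbegf and Ereg were not called. The Erbb3 call in neuron-like cells rested on only 2 and 6 UMIs and the Tgfa call on 7 and 4. Each fibroblast class held 2 to 11 UMIs of either gene per library. The 3 classes had Egfr below both fibroblast classes, whose levels were 71.6 and 62.0 CPM in telocyte-like and 67.9 and 52.9 CPM in trophocyte-like cells, and held only 22 to 114 cells per library. In myofibroblast-like cells no member passed under edgeR (5 of 8 had an unadjusted p under 0.05, 1.85% of all genes passed and DESeq2 called 1), with Nrg1 at -1.03 (adjusted p 0.0777) and Ereg at -1.12 (adjusted p 0.0872). With the library as a block 3 were called, Ereg (adjusted p 0.00308), Nrg1 (adjusted p 0.00793) and Areg (adjusted p 0.0443), all lower. There library totals moved the share of higher genes from 48.6% to 63.3%.

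Within epithelial classes the remaining ligands showed different places. Egf was highest in goblet-like cells of tissue, the mucus-producing cells, at 20.85 and 14.02 CPM, and these held 51.2% and 39.1% of the tissue Egf UMIs. In assembloids goblet-like cells had Egf at 1.38 and 0.911 CPM, on only 2 and 3 UMIs from 137 and 153 cells. Cycling cells of assembloids had 2.15 and 3.70 CPM, on 102 and 82 UMIs from 5854 and 1225 cells. By CPM, Hbegf was highest in Lgr5-positive cells of tissue (399 and 324 CPM), above cycling (283 and 298 CPM), colonocyte-like (202 to 292 CPM) and goblet-like cells (90.0 and 92.5 CPM). With TMM scaling colonocyte-like and Lgr5-positive cells of tissue did not differ in Hbegf beyond their spread (log2 fold change -0.0055, SE 0.26, adjusted p 1). Ereg in assembloids stood at 39.5 and 59.0 CPM in colonocyte-like, 57.4 and 39.3 CPM in Lgr5-positive and 31.7 and 27.6 CPM in cycling cells. These levels rested on 710 and 1052 UMIs from 2863 and 1033 colonocyte-like cells. Lgr5-positive cells of assembloids gave 29 and 38 UMIs from 56 and 55 cells, and cycling cells 1507 and 612 from 5854 and 1225. In tissue the UMIs were 28 and 14 from 933 and 1455 colonocyte-like cells. Lgr5-positive cells of tissue gave 16 and 0 UMIs from 127 and 85 cells, and cycling cells 4 and 6 from 276 and 179. Btc stood at 17.9 and 23.1 CPM in colonocyte-like, 33.7 and 33.1 CPM in Lgr5-positive and 15.3 and 22.4 CPM in cycling cells of assembloids and at 4 to 10 CPM in those of tissue.

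Class by class, 7 of 9 members passed between assembloid and tissue in colonocyte-like cells (40.4% of all genes, 22.7% higher and 17.8% lower), 4 of 9 in Lgr5-positive cells (16.0%, 8.94% higher and 7.04% lower) and 5 of 9 in cycling cells (41.9%, 23.1% higher and 18.8% lower). Without tissue replicate 2 the count in colonocyte-like cells was 4. With library totals the share of higher genes among those called went from 56.1% to 32.6% in colonocyte-like, from 56.0% to 41.1% in Lgr5-positive and from 55.1% to 29.2% in cycling cells. Areg, Ereg, Btc and Erbb3 were called higher in all 3 classes, and Egf was the 1 member called lower, in colonocyte-like cells (0.140 against 0.927 CPM, log2 fold change -2.23, SE 0.82, adjusted p 0.0358). That Egf call rested on 2 and 3 UMIs in assembloids and 8 and 12 in tissue. Ereg rose by 5.09 in colonocyte-like (SE 0.66, adjusted p 5.35e-06), 5.04 in cycling (SE 0.79, adjusted p 5.45e-05) and 3.44 in Lgr5-positive cells (SE 0.82, adjusted p 0.00628), the last not called without tissue replicate 2 (2.82, adjusted p 0.0731). Egfr was higher in assembloid colonocyte-like cells (77.7 and 74.5 CPM against 50.5 and 56.0 CPM, log2 fold change 0.97, SE 0.28, adjusted p 0.00818) but was not called in cycling cells (40.1 and 51.2 CPM against 94.99 and 90.33 CPM, log2 fold change -0.50, adjusted p 0.153), and the difference of these effects was -1.48 (SE 0.39, adjusted p 0.0505), called with a replicate block (adjusted p 0.000283). The Egfr call in colonocyte-like cells was lost with library totals (0.52, adjusted p 0.222) and without either tissue library (adjusted p 0.171 and 0.124). In cycling cells Egfr was called lower with library totals (-1.02, adjusted p 0.0199) and with the stricter gate (-0.86, adjusted p 0.0324). Nrg1 was called higher in assembloid colonocyte-like cells (5 and 1 UMIs in tissue, adjusted p 0.00233) and cycling cells (2 and 0 UMIs in tissue, adjusted p 0.000569). Their levels of 5.62 and 0.785 CPM and of 10.29 and 6.504 CPM stood beside 19.1 and 5.99 CPM in macrophage-like cells of the same libraries, and the call in colonocyte-like cells was lost without assembloid epithelium replicate 1 (1.80, adjusted p 0.0569) and without tissue replicate 2 (adjusted p 0.101). The Lgr5-positive class of assembloids held only 56 and 55 cells, of which 15 and 17 scored less than 20% above the gate's limit, and the leading genes of the Lgr5-positive class held 1 of its 8 markers in assembloids and 0 in organoid replicate 2. Assembloid and tissue Lgr5-positive cells were not compared with the stricter gate or with at most 5% mitochondrial UMIs, so their calls were not checked there.

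Organoids held no colonocyte-like or goblet-like class, with 11 and 6 and with 2 and 3 cells in these gates. Against the same classes of tissue, 2 of 9 members passed in Lgr5-positive cells (31.7% of all genes, 17.3% higher and 14.4% lower) and 3 of 9 in cycling cells (35.9%, 19.1% higher and 16.7% lower), all lower. Ereg in cycling cells was higher but not called (2.19, SE 0.85, adjusted p 0.0513). It was called without the filter on low counts, at 1000 genes, at 20% mitochondrial UMIs and with the stricter gate. With DESeq2, library totals, a replicate block or at most 5% mitochondrial UMIs it was not. Hbegf stood at 48.3 and 68.6 CPM in Lgr5-positive and 43.0 and 54.0 CPM in cycling organoid cells, and fell by 2.34 (SE 0.27, adjusted p 1.67e-06) and 2.19 (SE 0.27, adjusted p 2.18e-06) on the log2 scale from tissue. Egf fell by 2.57 (adjusted p 0.00973) and 1.93 (adjusted p 0.0168), and Egfr was called lower only in cycling cells (-0.94, SE 0.28, adjusted p 0.0118), where organoids had 26.7 and 48.2 CPM. Without organoid replicate 1, tissue replicate 1 or tissue replicate 2 the Egf calls in both classes (adjusted p 0.0543 to 0.411) and the Egfr call (adjusted p 0.0781 to 0.163) were lost, and the Hbegf calls were not. The Egf call was also lost in cycling cells at 5% mitochondrial UMIs (-1.68, adjusted p 0.254). In Lgr5-positive cells it was lost with the stricter gate (-2.12, adjusted p 0.0623). Egfr in Lgr5-positive cells was -0.46 (SE 0.29, adjusted p 0.244), and -0.97 without organoid replicate 2 and -0.077 without organoid replicate 1. With library totals the share of higher genes among those called went from 54.6% to 35.9% in Lgr5-positive and from 53.3% to 28.1% in cycling cells.

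Other genes of the pathway were followed in 6 lists with 47 genes. Their counts stand beside the 49.7% of all genes called between assembloid and tissue epithelium, 52.9% between organoid and assembloid, 47.1% between organoid and tissue and 73.4% between stroma and assembloid epithelium. Of 5 other receptors and neuregulins, 4 were higher and 0 lower in assembloid than in tissue epithelium: Nrg4 (log2 fold change 3.48, 9.66 against 1.15 CPM), a ligand of ERBB4, Nrg2 (3.26, 2.60 against 0.361 CPM), Nrg3 (1.98 against 0.0377 CPM) and the receptor Erbb4 (0.473 against 0.0910 CPM). Erbb2, the partner of ERBB3, was not called, with 32.4 against 34.6 CPM and a difference of 0.29 once scaled by TMM. All 5 were lower in organoid than in assembloid epithelium. Of 6 genes of ligand release, 3 were higher (the proteases Adam19, 3.61, and Adam10, 0.91, and the rhomboid protein gene Rhbdf1, 1.26) and 0 lower.

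Of 12 feedback inhibitors, 2 were higher and 4 lower in assembloid than in tissue epithelium, a share like that of all genes (49.7%). Errfi1, whose product binds and inhibits the EGFR kinase, rose by 2.43 on the log2 scale (684 against 167 CPM) and fell by 4.43 from assembloid to organoid epithelium (to 36.0 CPM). Socs3 was higher (1.59), and Lrig1 (-1.16) and Lrig3 (-2.17), of a family of receptor inhibitors, and the ubiquitin ligases Cbl (-1.14) and Cblb (-1.43) were lower. Of 3 MAPK phosphatases, which are induced by the pathway they restrain, Dusp4 was higher (3.73, 44.8 against 4.40 CPM) and 0 were lower, and all 3 were lower in organoid than in assembloid epithelium (Dusp5 -3.26, Dusp4 -2.99, Dusp6 -1.97). Of 10 response genes 4 were higher and 3 lower in assembloid than in tissue epithelium. Ier3 (4.33), Phlda1 (2.19) and Plaur (2.11) rose, whereas Etv5 (-1.63), Fos (-1.07) and Egr1 (-0.92) fell. Of 11 adaptors and kinases 1 was higher and 2 lower. The response genes thus went in both directions, and the median log2 fold change of all genes tested was 0.03.

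From tissue to organoid epithelium, 1 feedback inhibitor was higher and 6 lower, among them Lrig3 (-3.99), Errfi1 (36.0 against 167 CPM) and Spry2 (-1.25), and 6 response genes were higher and 3 lower, with Ier3 (3.63) and the cyclin gene Ccnd1 (2.64) up and Fos (-3.10) down. In stroma against assembloid epithelium, 4 feedback inhibitors were higher and 3 lower (Socs3 5.56, Spry4 3.06 and Spred1 2.39 were the largest), 6 response genes higher and 1 lower, and all 5 other receptors and neuregulins lower, Erbb2 by 1.89. Between telocyte-like and trophocyte-like cells 2 genes of these lists passed, Spry4 (1.25) and Lrig3 (-1.10), both among the 12 feedback inhibitors, beside 8.53% of all genes. Of the other receptors and neuregulins 2 of 5 could be tested there.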

How the data were processed

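The authors deposited, per library, a filtered gene by cell matrix of UMI counts (Cell Ranger 6.0.1 in the headers of both stromal tables and 7.1.0 in the other 6, Cell Ranger 6 and mm10 in the submitters' processing notes). Whether introns were counted is not given in the sources used here. Summed UMIs per library and class were tested with edgeR 4.0.16 (R 4.3.3, limma 3.58.1), with its filter on low counts, TMM scaling (factors that set aside genes with extreme ratios), quasi-likelihood tests and Benjamini-Hochberg adjustment over all genes tested, and called at an adjusted p under 0.05. DESeq2 1.42.0 was an alternative. SE is the log2 fold change divided by the square root of F. Tables were handled in Python 3.11.15 with NumPy 2.4.6, SciPy 1.17.1 and pandas 2.3.3, and drawn with matplotlib 3.10.9. Scripts were tested on simulated data.

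A cell entered a class with at least 3 markers of its list and UMIs of the list above a limit per 10000 (5 to 500), set after cells were seen. Cells of epithelial libraries past the neuron gate stayed if they also passed the enteroendocrine and epithelial gates. No doublet caller was run. Shares have exact binomial intervals at 95%, and 3 UMIs are the limit of a count of 0. Both cover counting error only. Fibroblasts in tests of stromal classes are the mean of telocyte-like and trophocyte-like cells. Positions are from GENCODE M21 (GRCm38), which held 32158 of 32285 gene IDs, and promoters from RefSeq (GRCm38.p6).

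The members, lists and tests were chosen with earlier results of these data known. All 10 members were followed in every comparison, but Epgn was too low for the class fits and Egf for those of stromal classes, and in classes mainly the members called are named. Other pathway genes are named where called, at a mean of 10 CPM or more, for the 3 largest log2 fold changes of their list; Nrg2, Nrg3, Nrg4, Erbb4, Cbl, Cblb, Adam10 and Rhbdf1 and other genes outside that rule were named after their values were seen. The methods call the 2 libraries of a group biological replicates, and stromal cells came from 2 mice. For the epithelial groups separate cultures or animals are not given in the sources used here, so p-values measure the spread between libraries. Replicates differed by a chi-square per gene of 24.2 to 401, so none was a copy. Stromal classes of one library are paired by their library, and deviations of telocyte-like and trophocyte-like cells correlated at 0.698 over 8961 genes.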

Additional observations from a re-analysis of the deposited data

Results flagged for a closer look

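The effect of assembloid against tissue on Erbb3 differed between cycling and colonocyte-like cells, by a test of the difference itself. With a replicate block edgeR also called Areg (1.17, adjusted p 0.0255) and Egfr (-1.49, adjusted p 0.000283) in that test. The same block called Erbb3 in the other test of a difference, colonocyte-like minus Lgr5-positive in assembloids against tissue (-0.95, adjusted p 0.0105). None of these further values was called without the block. Erbb3 went from 106 and 77.9 CPM to 1110 and 938 CPM in cycling cells and from 141 and 93.4 CPM to 467 and 295 CPM in colonocyte-like cells, a difference of 1.87 in log2 fold change (SE 0.46, adjusted p 0.0330, edgeR). It was called with a replicate block (adjusted p 8.91e-06) and with library totals (adjusted p 0.0459). In the same test 2.31% of all genes passed. It was not called without tissue replicate 1 (1.89, adjusted p 0.571) or tissue replicate 2 (2.10, adjusted p 0.250), and without any other 1 library it was 1.81 to 2.02 and called.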

How the results depend on the processing

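Of 201 recomputed counts of called members 169 stayed within 1.5 times of the reported count, and of 1208 recomputed fold changes 1084 kept their direction and side of the threshold, 57 lost and 46 gained a call and 21 turned in direction. Another 621 recomputed values of classes, neither called nor given above, are not among these, and 40 of them turned, 0 with a call. With library totals the turned values were Hbegf -0.25, Tgfa -0.13 and Egfr -0.10 between assembloid and tissue epithelium and Epgn -0.063 between organoid and tissue epithelium. With at most 5% mitochondrial UMIs Epgn was -0.78 there, with at most 20% Epgn was -0.26 and Hbegf -0.073 between assembloid and tissue, and with all kept cells summed Hbegf was -0.027 and Nrg1 0.27. Leaving out 1 library gave Areg between organoid and tissue epithelium a range of -0.71 to 0.0049 (highest without tissue replicate 2) and Epgn -0.51 (without tissue replicate 1) to 1.16, with -0.27 without organoid replicate 2. Hbegf between colonocyte-like and Lgr5-positive cells turned in tissue without the filter (0.034), at 1000 genes (0.028) and without assembloid replicate 1 (0.0084) or 2 (0.0072) or tissue replicate 1 (0.42), and in assembloids with library totals (-0.13). Erbb3 between these classes of assembloids turned at 20% mitochondrial UMIs (0.0082). Of 24 recomputed differences of effects (Areg, Egfr and Erbb3) 2 lost and 3 gained a call and 0 turned. The Areg difference of 1.17 and the Erbb3 difference of -0.95 with a replicate block are not among these.

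With the fibroblast-like cells of the assembloid epithelial libraries in place of the stromal libraries, 4 members were called against assembloid epithelium, and Btc (0.56) and Egfr (1.23) turned. Members called between myofibroblast-like cells and fibroblasts went from 0 to 1 with DESeq2, 4 without the filter on low counts, 1 at 5% mitochondrial UMIs and 2 with the stricter gate. Between telocyte-like and trophocyte-like cells they went from 1 to 3 without the filter and 2 with the stricter gate, and in neuron-like cells from 7 to 4 at 5% mitochondrial UMIs. Between colonocyte-like and Lgr5-positive cells of tissue they went from 1 to 2 with DESeq2, without the filter, at 1000 genes and at 20% mitochondrial UMIs, and to 3 with library totals and with the stricter gate, and in assembloids from 1 to 2 with library totals. Between cycling organoid and tissue cells they went from 3 to 6 at 20% mitochondrial UMIs, and in Lgr5-positive cells from 2 to 1 with the stricter gate. The cause was not tested.

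Leaving out 1 library gave 4 to 7 called members in colonocyte-like cells between assembloid and tissue (lowest without tissue replicate 2), 1 to 3 in Lgr5-positive organoid cells (1 without organoid replicate 1 or either tissue library), 1 to 5 in cycling organoid cells (1 without either tissue library, 5 without either assembloid library), 1 to 2 between colonocyte-like and Lgr5-positive cells of assembloids (2 without assembloid replicate 2) and 1 to 3 in tissue (3 without either assembloid library). Where a group is left with 1 library, it is assumed to vary like the others. The tests of stromal classes could not be fitted without a library, since no residual degrees of freedom remain. Lgr5-positive cells of tissue were not compared with those of assembloids or organoids at 5% mitochondrial UMIs. With the stricter gate they were not compared with those of assembloids.

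With the library as a replicate block, stromal classes gave 3 called members in place of 1 between telocyte-like and trophocyte-like cells and 3 in place of 0 in myofibroblast-like cells, and colonocyte-like against Lgr5-positive cells 2 in place of 1 in both tissue and assembloids (Erbb3 0.81, adjusted p 0.000357, and Hbegf 0.66, adjusted p 0.0166). Between groups the replicate labels share only a number. Deviations of same-numbered libraries correlated at -0.18 to 0.191 over 8961 genes, and the block moved no count of called members between groups by over 1.5 times. Library totals, the 20% limit on mitochondrial UMIs, fibroblast-like cells of the epithelial libraries and leaving out cells past both the enteroendocrine and the neuron gate were alternatives chosen after seeing the data. Members with few UMIs (Egf and Epgn) are limited by depth.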

Other observations

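The stromal libraries held keratinocyte-like cells marked by Krt5, Krt14 and Krt15, 888 in replicate 1 and 38 in replicate 2, which were left out of the stromal sums. They had the highest Epgn of any class, 11.8 and 21.01 CPM on 279 and 25 UMIs, and Areg at 265 and 352 CPM, with Nrg1 at 69.8 and 54.6 CPM and Erbb3 at 8.96 and 11.8 CPM. Tgfa stood at 25.1 and 26.1 CPM, overlapping the Lgr5-positive cells of assembloids.

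Among 9504 genes with values over 43 sums of library and class, the patterns most like that of Erbb3 were Kif13a (Pearson r 0.932), Epb41l4b (0.909) and Pkp2 (0.908). Those most like Areg were Pmaip1 (0.870), Gm49980 (0.819) and Sprr2a3 (0.789), and those most like Hbegf were Cdh1 (0.941), Chmp4c (0.940) and Pard6b (0.940). The sums share libraries and depth, so the correlations are a description.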
